A study of Homo sapiens with 10 samples.

Results

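The peaks described here kept most of their acetylation through the first hours after the PAX3-FOXO1 degrader was added and were lower at 24 h. They are called late losses, and they number 234 of the 42067 windows in the deposited count table. The rule took windows with a DMSO mean of at least 10 CPM (a library's count in the window as a share of its total over all windows, scaled to 1e+06). L is the log2 of a treated group's mean CPM plus 1 over the DMSO mean CPM plus 1. L at 24 h had to be at or below -0.5, with both 24 h libraries below both DMSO libraries (22.6% of all windows meet that last part), while L at 2 h and at 4 h stayed above -0.2. Of the 42067 windows, 26110 met the DMSO minimum and are called eligible peaks. The members were thus chosen by their counts in every group of the series, so what these peaks did against DMSO, and at 24 h against 2 h or 4 h, is a description and not a test.

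Chromatin immunoprecipitation sequencing of histone H3 acetylated at lysine 27 (H3K27ac) was done in Rh30, an established human alveolar rhabdomyosarcoma cell line. All groups carried the PAX3-FOXO1-FKBP fusion, the controls included. The groups were DMSO, the solvent, and 500 nM dTAG47 for 2 h, 4 h and 24 h, with 2 libraries each, named A and B by their columns. No time is labelled for DMSO, and culture time and treatment time cannot be told apart. Whether the cells were a single clone, and whether the libraries came from separate cultures, the sources used here do not give, so the spread between libraries may be technical. The 2 input libraries of DMSO-treated cells in the labels were not analysed here. Total counts in peaks were 3540104 and 3546020 in DMSO, 3616695 and 4744596 at 2 h, and 3641032 and 4044019 at 4 h. At 24 h they were 5001652 and 4369471, so DMSO had the lowest totals. Scaling to the library total hides any change that all peaks share.

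PAX3-FOXO1 is a fusion transcription factor, made by a chromosome translocation, that drives alveolar rhabdomyosarcoma by holding enhancers of muscle-lineage and developmental genes active. H3K27ac is placed on histones by the acetyltransferases p300 and CBP, removed by histone deacetylases, and marks active enhancers and promoters. A degron such as FKBP lets a ligand recruit an E3 ubiquitin ligase to the tagged protein, so that the protein is destroyed by the proteasome. The deposited table names no genes and its build, hg19, has no genome or annotation at hand, so peaks are named by position and no sequence is shown.

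The typical late loss was a modest peak that stayed near its DMSO level to 4 h, as the rule required. The median level of the 234 peaks was 16.7 CPM in DMSO, then 17.0 CPM after 2 h, 16.4 CPM after 4 h and 10.9 CPM after 24 h. Their L had medians of -0.02 after 2 h, -0.07 after 4 h and -0.59 after 24 h, where the medians over all eligible peaks were 0.00, 0.00 and -0.01. L at 24 h ranged from -1.13 to -0.50. It was at or below -0.75 in 31 peaks, at or below -1 in 2, and above -0.6 in 124, so most members lay near the threshold. At 2 h, 101 of the 234 peaks were above DMSO and at 4 h 69 were. Of the 26110 eligible peaks, 13145 and 13126 were, so fewer members than eligible peaks, as a share, lay above DMSO at 4 h. In 41 peaks L was above 0 at both times, and in 105 at neither, against 9539 and 9378 of the eligible peaks. An L above 0.2 at 2 h or at 4 h was found in 17 members, against 5397 of the eligible peaks.

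Summed over the 234 peaks, the signal was 4690 and 4662 CPM in the DMSO libraries, 4684 and 4624 CPM at 2 h, 4480 and 4527 CPM at 4 h, and 3009 and 2936 CPM at 24 h. A 2 h library lay between the DMSO libraries and the other just under them, those at 4 h were a little lower, and the step came between 4 h and 24 h. In 217 of the 234 peaks both 24 h libraries lay below all 6 other libraries, against 2561 of the 26110 eligible peaks. The rule itself had placed the 24 h libraries below both DMSO libraries and limited the falls at 2 h and 4 h.

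**Figure D1:**
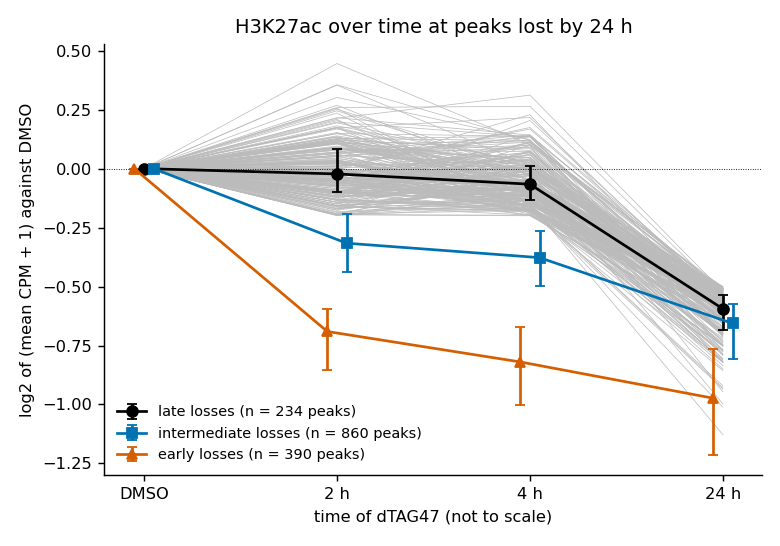
Log2 of mean CPM plus 1 against DMSO (vertical axis) at DMSO, 2 h, 4 h and 24 h of dTAG47 (horizontal axis, not to scale). Grey lines are the 234 late losses, markers are class medians and bars run from the first to the third quartile. The late losses lie near 0 at 2 h and 4 h (medians -0.02 and -0.07) and at -0.59 at 24 h, by the rule that chose them. Early losses are already at -0.69 at 2 h.

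The 10 late losses with the lowest L at 24 h show what such a peak looks like library by library. On chromosome 1, the peak at 30180897 to 30181297 had 31.9 and 30.7 CPM in DMSO, 23.2 and 31.6 CPM at 2 h, 29.1 and 27.2 CPM at 4 h, and 15.0 and 12.6 CPM at 24 h. Its L at 24 h was -1.13, the lowest of all members, and its 24 h libraries lay far below the other 6, among which 2 h library A was the lowest. On chromosome 16, the peak at 31063921 to 31064321 had 12.7 and 14.7 CPM in DMSO, 13 and 15.2 CPM at 2 h, 12.9 and 11.4 CPM at 4 h, and 6.40 and 6.18 CPM at 24 h. Both 2 h libraries lay above both 4 h libraries, DMSO overlapped each of these groups, and none overlapped 24 h. On chromosome 5, the peak at 141331136 to 141331536 had 11.9 and 13.8 CPM in DMSO, 15.2 and 15.6 CPM at 2 h, 12.1 and 13.4 CPM at 4 h, and 5 and 6.87 CPM at 24 h. Here the 2 h libraries were the highest of the 8, before the low 24 h values.

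On chromosome 19, the peak at 3154763 to 3155163 was highest at 4 h. It had 12.7 and 11.6 CPM in DMSO, 10.5 and 11.2 CPM at 2 h, 14.0 and 12.1 CPM at 4 h, and 6.60 and 5.03 CPM at 24 h. Its log2 ratio of 24 h to 4 h, -1.04, was the lowest of the 234, whose median was -0.56. On chromosome 7, the peak at 2909855 to 2910255 had 26.8 and 24.3 CPM in DMSO, 21.8 and 24.2 CPM at 2 h, 22.5 and 23.0 CPM at 4 h, and 14.2 and 11.7 CPM at 24 h. On chromosome 4, the peak at 153922761 to 153923161, 44405 bases from the nearest other peak, had 13.8 and 13.3 CPM in DMSO, 13.5 and 12.6 CPM at 2 h, 12.4 and 12.1 CPM at 4 h, and 6.60 and 7.55 CPM at 24 h. In both, the 2 h and 4 h libraries lay close to or under the DMSO values and above 24 h.

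The other 4 of these 10 were on chromosome 1 at 8150749 (L at 24 h -0.93), chromosome 7 at 22521601 (-0.92), and chromosome 9 at 131674091 (-0.86) and 127085549 (-0.84). The last of these shows how far libraries of a group can lie apart, with 33.3 and 48.2 CPM in DMSO, 47.6 and 35.6 CPM at 2 h, 32.4 and 42.5 CPM at 4 h, and 20.8 and 24.0 CPM at 24 h. Its 24 h values still lay below all others. Across the 234 peaks the SD of the 2 libraries had a median of 8.55% of the mean in DMSO, 8.69% at 2 h, 8.02% at 4 h and 9.54% at 24 h. Over all eligible peaks, in the same order, it was 7%, 6.86%, 6.87% and 6.22%.

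**Figure D2:**
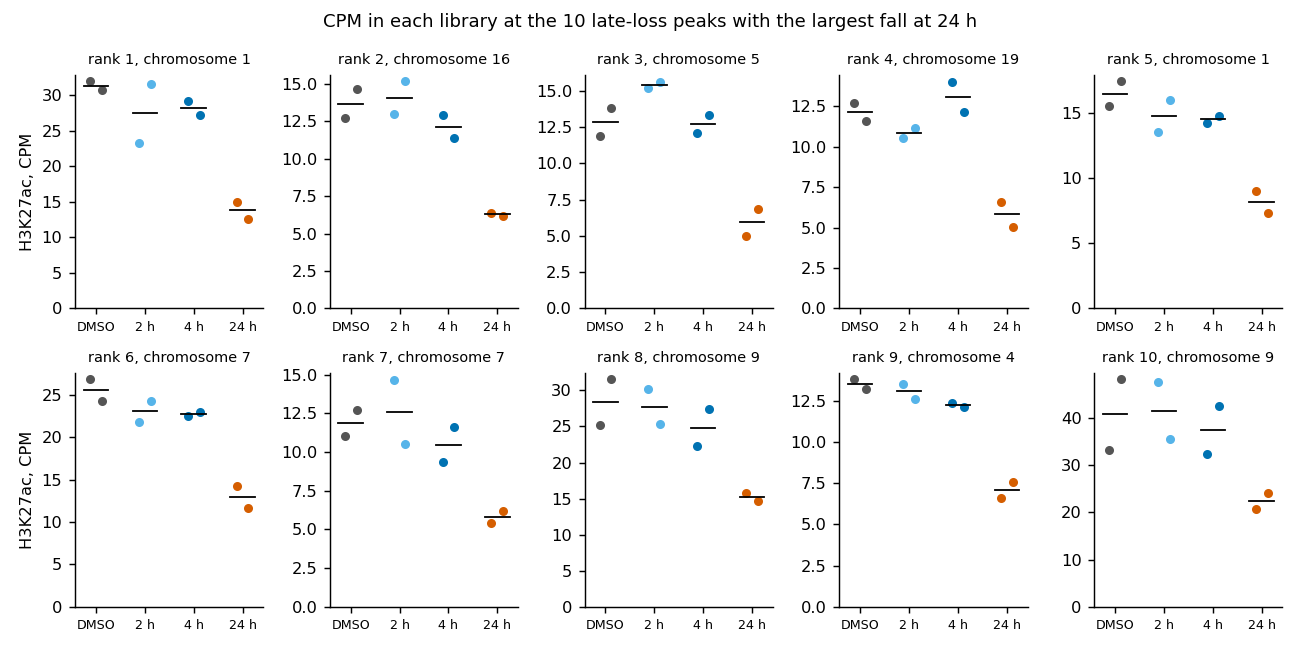
H3K27ac in CPM (vertical axis, from 0) in each of the 8 libraries at the 10 late losses with the lowest L at 24 h, by group (horizontal axis). Points are libraries and bars are means of 2. In each panel both 24 h libraries lie below the other 6, for example at 15.0 and 12.6 CPM at rank 1 on chromosome 1.

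The strongest late losses by DMSO level changed by smaller factors. On chromosome 1, the peak at 33721944 to 33722344 had 106 and 103 CPM in DMSO, 96.5 and 95.9 CPM at 2 h, 94.5 and 104 CPM at 4 h, and 77.4 and 66.4 CPM at 24 h (L at 24 h -0.54). On chromosome 8, the peak at 141645518 to 141645918 had 67.8 and 80.7 CPM in DMSO, 70.8 and 67.9 CPM at 2 h, 65.9 and 71.0 CPM at 4 h, and 53.8 and 37.8 CPM at 24 h. Its 24 h libraries lay further apart than those of any earlier group. On chromosome 17, the peak at 80175646 to 80176046 had 60.7 and 57.0 CPM in DMSO, 54.7 and 55.6 CPM at 2 h, 57.1 and 56.9 CPM at 4 h, and 39.2 and 38 CPM at 24 h. Here libraries within a group were close and 24 h stood alone. Next in level came chromosome 15 at 79296231 (DMSO mean 52.1 CPM, L at 24 h -0.60) and chromosome 9 at 133297541 (49.7 CPM, -0.55).

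Only 20 of the 234 peaks met the thresholds in every single library, that is with each 24 h library at or below -0.5 against each DMSO library and each 2 h and 4 h library above -0.2. Of these, the peak on chromosome 5 at 141331136 and that on chromosome 4 at 153922761 had the lowest L at 24 h. On chromosome 7, the peak at 45067112 to 45067512 had 12.1 and 14.1 CPM in DMSO, 16.0 and 13.3 CPM at 2 h, 13.7 and 15.3 CPM at 4 h, and 7 and 7.55 CPM at 24 h. On chromosome 16, the peak at 67265513 to 67265913 had 25.4 and 25.7 CPM in DMSO, 24.9 and 23.4 CPM at 2 h, 23.6 and 23.2 CPM at 4 h, and 15.2 and 14.0 CPM at 24 h. The fifth lay on chromosome 22 at 30194921 (L at 24 h -0.77). Another member, on chromosome 9 at 18490367, also stepped down sharply between 4 h and 24 h (log2 ratio -0.91), but its DMSO libraries, at 8.19 and 12.1 CPM, lay apart.

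The thresholds cut through a continuum. Just inside the 24 h threshold were peaks on chromosome 9 at 89337246 (L -0.5002) and chromosome 5 at 77231583 (-0.5002), and just outside were chromosome 9 at 81626553 (-0.49999) and chromosome 22 at 27871565 (-0.4996). At the 2 h threshold, L at 2 h was -0.1995 on chromosome 1 at 30182200 and -0.198 on chromosome 17 at 76982742, inside, and -0.2049 and -0.2062 on chromosome 2 at 9431692 and 24588769, outside. At 4 h it was -0.19996 on chromosome 14 at 50528797 and -0.1978 on chromosome 2 at 38046638, inside, and -0.2015 on chromosome 6 at 41666598 and -0.2018 on chromosome 10 at 103447413, outside. DMSO means were 10.02 CPM on chromosomes 15 (61291642) and 8 (110094269), inside, and 9.88 CPM on chromosomes 10 (123170864) and 17 (55457370), outside.

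Each count was also run through edgeR's quasi-likelihood test over all 41791 peaks with enough counts, and all 234 members were among them. At 24 h against DMSO 171 of the 234 were called lower at an adjusted p under 0.05, where 4.88% of all tested peaks were. This contrast chose the members, and the 63 others did not pass although the rule took them. At 24 h against 4 h, 81 were called lower (0.68% of all tested), and at 24 h against 2 h, 143 (2.49%). At 2 h or 4 h against DMSO edgeR called 0 members, where it called 1.23% and 2.23% of all tested peaks. At an unadjusted p under 0.05 edgeR had 1 member higher at 2 h, and none lower at 2 h or either way at 4 h. Over all peaks it had 2682 lower and 1969 higher at 2 h, and 2999 lower and 2459 higher at 4 h. DESeq2 also called 0 members there, with 0 at an unadjusted p under 0.05. Over all peaks it called 24 at 2 h and 79 at 4 h. The rule kept L above -0.2 at both times, so the absence of lower members there is a description.

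These counts are fragile. DESeq2's Wald test called 14 members lower at 24 h against DMSO (0.987% of its tested peaks). It called 9 lower against 2 h (47 over all peaks) and 0 against 4 h (0.0113%). At an unadjusted p under 0.05 in DESeq2, 146 members were lower against 4 h, and 802 over all peaks. The rule used the groups of each of these contrasts, so these counts are a description. Leaving out a library of a compared group left that group with a single library. In each contrast edgeR then called fewer members lower, and also fewer of all tested peaks. The membership itself also turned over. Of the 234, the rule took 123 again without DMSO library A, 136 without DMSO library B, 186 without 24 h library A and 167 without 24 h library B, in totals of 220, 233, 386 and 305 peaks.

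Measuring peaks in libraries that did not choose them gives a view the rule does not fix. The thresholds were applied to the A libraries alone, 1 per group, and the chosen peaks were measured in the B libraries, and the reverse. These choices are not the 234: of the 303 peaks chosen in A 91 were members, and of the 305 chosen in B 96 were. The 303 peaks chosen in A had a mean log2 change against DMSO, in B, of -0.04 at 2 h, -0.08 at 4 h and -0.39 at 24 h. For the 305 chosen in B, the means in A were 0.05 at 2 h, -0.02 at 4 h and -0.33 at 24 h. Over all peaks eligible in the choosing DMSO library, the means in the other libraries were between -0.02 and 0.00 at every time. In peaks chosen this way, most of them outside the 234, 24 h was thus lower in the libraries not used for choosing, and the mean changes at 2 h and 4 h were close to 0 there.

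Its size was smaller than in the libraries that chose the peaks, where the 24 h means were -0.63 and -0.64. In the libraries not used for choosing, 24 h was below DMSO in 261 of the 303 peaks (86.1%, against 49.9% of eligible peaks) and in 257 of the 305 (84.3%, against 51.3%). It was at or below -0.5 in 39.3% and 31.1% of them, against 6.86% and 6.23% of eligible peaks. The direct log2 ratio of 24 h to 4 h, which needs no DMSO library, averaged -0.31 in both sets, against -0.02 over eligible peaks. With 1 library per group in each set there is no test of these means, and peaks are not independent replicates. Only 46 peaks were chosen in both sets, which is 15.2% of the A choice and 15.1% of the B choice. All of them were among the 234, but a peak that meets the L and DMSO limits in both sets also meets them in the group means.

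**Figure D3:**
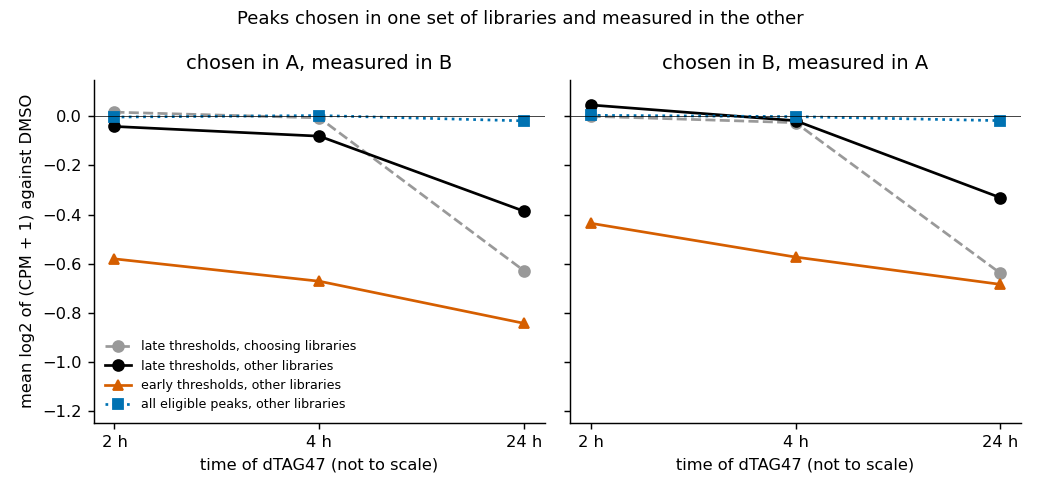
Mean log2 of CPM plus 1 against DMSO (vertical axis) at 2 h, 4 h and 24 h (horizontal axis, not to scale) for peaks that met the thresholds in 1 set of libraries, measured in the same (dashed grey) or the other set (solid). Peaks chosen by the late-loss thresholds (black, 303 and 305, of which 91 and 96 were among the 234) are shown in the other libraries. They lie between -0.08 and 0.05 at 2 h and 4 h and at -0.39 and -0.33 at 24 h. Those chosen by the early-loss thresholds (orange) are at -0.58 and -0.44 at 2 h, and all eligible peaks (blue) stay near 0.

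For comparison, all 24 h losses were taken by the same DMSO and 24 h conditions, which 1484 peaks met. Late losses were 234 of them. Another 390, called early losses, had L at or below -0.5 at both 2 h and 4 h, and the other 860 are called intermediate. At 24 h the median L was -0.59 for late losses and -0.97 for early losses. Measured in the libraries that did not choose them, the 303 and 305 peaks that met the late-loss thresholds in 1 set averaged -0.04 and 0.05 at 2 h and -0.39 and -0.33 at 24 h. For early losses, 381 and 548 peaks met the thresholds in 1 set, and in the other they averaged -0.58 and -0.44 at 2 h and -0.84 and -0.69 at 24 h. This difference was not tested.

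Applying the same thresholds with the times exchanged gave fewer peaks. Lower at 24 h alone were the 234, while 27 were lower at 2 h alone and 9 at 4 h alone. In the other direction, 100 peaks were higher at 24 h alone, 7 at 2 h alone and 10 at 4 h alone. The exchange is not even, because a peak changed at 2 h or 4 h alone had to return toward DMSO at a later time. A peak changed at 24 h alone did not have to. These counts also share the DMSO libraries and were not tested against each other.

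Late losses sat at the lower end of the eligible signal range. Of the 234, 150 (64.1%) had a DMSO mean below 20 CPM, against 40.7% of eligible peaks, and 4 (1.71%) were at 50 CPM or more, against 20.1% of eligible peaks. Among 24 h losses in general the low share was alike, at 64.8% of intermediate and 63.1% of early losses, while 5.12% of the intermediate and 5.64% of the early losses reached 50 CPM. As a share of eligible peaks, late losses made up 1.31% between 10 and 15 CPM, 1.59% between 15 and 20 CPM and 0.0761% at 50 CPM or more. Counts were small at this level. The median late loss held 54 and 48 counts in the 24 h libraries and 59 and 61 in the DMSO libraries, and 24 h library B held as few as 16. The 24 h libraries had higher totals than the DMSO libraries, so raw counts differed less than CPM. The part of counting error in this pattern was not tested.

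**Figure D4:**
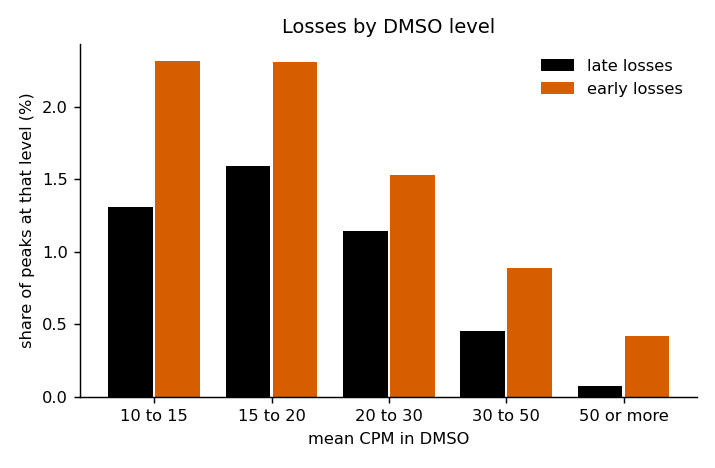
Share of eligible peaks (vertical axis, %) that were late losses (black) or early losses (orange), by mean CPM in DMSO (horizontal axis). Late losses are 1.31% of peaks at 10 to 15 CPM and 0.0761% at 50 CPM or more.

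Late losses were spread over many chromosomes, mostly 1 to a region. They lay on 21 chromosomes, in 227 regions when peaks within about 13 kb of each other were joined. In 7 regions there were 2 members each, 14 peaks in all (5.98% of 234), and no region held more. Of early losses, 30.5% shared a region with another early loss, and of intermediate losses 21.7% with another of their kind, but these are larger classes. The median gap to the nearest peak of any kind was 5.94 kb for late losses, against 7.36 kb over eligible peaks. It was 5.56 kb for intermediate and 4.46 kb for early losses. Of the late losses 56 (23.9%) stood alone, against 36.3% of eligible peaks, 29.4% of intermediate and 28.2% of early losses. By chromosome, the share of eligible peaks that were late losses was highest on chromosome 9 (19 of 1507, 1.26%). It was 0 on chromosomes 13 (of 368, which allows up to 0.815%), X (of 487, up to 0.616%) and Y (of 11, up to 27.3%). These limits are 3 peaks over the eligible peaks and treat peaks as independent. Differences between chromosomes were not tested. The share over all chromosomes was 0.896%.

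The 4 regions described next were picked for holding 2 members each, and the other peaks in them differed in their values at 24 h. On chromosome 1, the members at 30180897 and 30182200 form a region of their own, whose summed signal was 73.4 and 76.4 CPM in DMSO, 60.6 and 70.0 CPM at 2 h, 68.1 and 69.0 CPM at 4 h, and 42.8 and 39.6 CPM at 24 h. On chromosome 6, members at 39303279 and 39311227 flank 2 other peaks, and the region of 4 summed to 66.7 and 61.2 CPM in DMSO, 69.7 and 68.5 CPM at 2 h, 56 and 68.0 CPM at 4 h, and 47.0 and 40.1 CPM at 24 h. The 2 peaks between them had L of -0.34 and -0.38 at 24 h and did not pass the edgeR test (adjusted p = 0.236 and 0.174).

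On chromosome 9, members at 131665000 and 131674091 lie in a region of 8 peaks from 131637839 to 131684820. The other 6 had a mean L of -0.09 at 24 h, and none of them was called lower. On chromosome 3, members at 149865860 and 149877398 lie among 4 other peaks from 149858536 to 149902144, whose mean L was 0.18. The peak at 149865159, 301 bases from the first of these members, had a mean of 30.1 CPM at 24 h, against 29.6 CPM in DMSO. That first member did not pass the edgeR test at 24 h (adjusted p = 0.0738), while the member at 149877398 did (adjusted p = 0.0285).

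The neighbours of late losses are peaks near them that did not meet the rule, so the rule was applied to their counts too and took out every neighbour that met it. Within about 13 kb of the 234 lay 305 peaks that are not members, beside 175 of the 234, and 304 of them were tested. At 24 h against DMSO edgeR called 40 of these 304 lower (13.2%) and 3 higher. Over all tested peaks the shares were 4.88% lower and 3.46% higher, and 6.81% of the tested peaks with at least 10 CPM in DMSO were lower. At 2 h edgeR called 2 of the 304 lower (0.658%, against 1.03% of all tested) and at 4 h 10 (3.29%, against 1.67%). The neighbours had median edgeR log2 changes of 0.04 after 2 h, -0.02 after 4 h and -0.15 after 24 h, against 0.00 at each time over all tested peaks. Neighbours are not independent replicates, so the set as a whole was not tested.

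The summed signal of the 305 neighbours was 6954 and 6979 CPM in DMSO, 7105 and 7016 CPM at 2 h, 6831 and 6820 CPM at 4 h, and 6227 and 6170 CPM at 24 h. The 24 h libraries lay below all 6 others, and the 24 h mean was 0.89 of the DMSO mean. The exact two-sided permutation p over libraries was 0.33, the smallest that 2 against 2 allow. The 4 ratios of a 24 h to a DMSO library had an SD of 0.00504. Each library enters 2 of these ratios, so they are not independent and their SD is not a replicate error.

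The share of neighbours called lower was greater nearer to the late loss, a trend that was not tested. Up to 1 kb away edgeR called 13 of 63 neighbours lower at 24 h (20.6%), between 1 and 5 kb 8 of 55 (14.5%), between 5 and about 13 kb 19 of 186 (10.2%), and between about 13 and 50 kb 71 of 806 (8.81%). Median log2 changes at 24 h over these bins were -0.34, -0.15, -0.08 and -0.05. Windows close together can share fragments. With a gap of at least 1 kb, 27 of 241 neighbours were called lower (11.2%). Without DMSO library B the 40 became 26 (8.52% of neighbours, against 2.52% of all tested peaks), and DESeq2 called 11 of 303 (3.63%, against 0.987%).

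The summed signal of neighbours of late losses was 1.01, 0.98 and 0.89 of the DMSO mean at 2 h, 4 h and 24 h, and that of neighbours of early losses was 0.878, 0.863 and 0.829. Of the 337 tested neighbours within about 13 kb of an early loss, 6.23% were called lower at 2 h, 10.7% at 4 h and 30.6% at 24 h. Around intermediate losses 17.4% of 846 neighbours were lower at 24 h and the sum was at 0.87. Around the 11887 steady peaks, whose L lay between -0.2 and 0.2 at all times, 7.08% of 5992 neighbours were lower at 24 h and the sum was at 1.01. Neighbours of the other classes can be late losses. Without these the shares lower at 24 h were 30.1% around early losses, 15.2% around intermediate losses and 6.41% around steady peaks. The differences between these classes were not tested. Of the 305 neighbours of late losses, 2 were early losses, near their share of all windows (390 of 42067). Intermediate losses were 35 of the 305, against 860 of 42067.

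**Figure D5:**
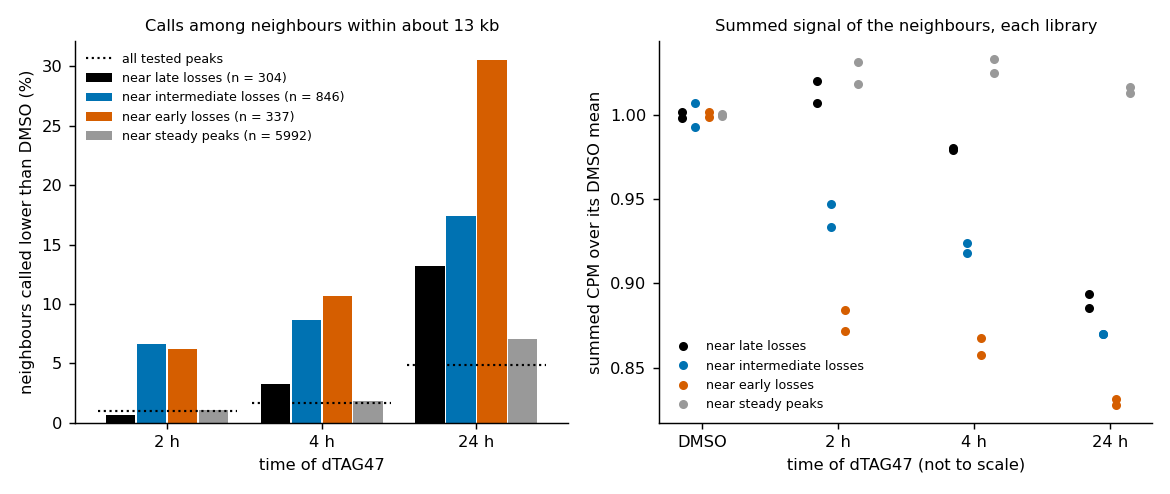
Left, share of tested neighbours within about 13 kb that edgeR called lower than DMSO (vertical axis, %) at 2 h, 4 h and 24 h, by the class of the peak they lie near; dotted lines are all tested peaks. Right, summed CPM of the neighbours in each library over the DMSO mean (the axis does not start at 0), 2 points per group. Neighbours of late losses are near the dotted line at 2 h (0.658%) and above it at 24 h (13.2%), and their sums reach 0.89 at 24 h.

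Of the 5 neighbours with the largest called falls at 24 h, edgeR had already called 2 at 4 h. On chromosome 9, the peak at 89347874 to 89348274, 10228 bases from the member at 89337246, had 16.7 and 17.2 CPM in DMSO, 13.3 and 11.6 CPM at 2 h, 9.89 and 9.89 CPM at 4 h, and 6.60 and 5.03 CPM at 24 h. Its log2 change at 24 h was -1.55 (SE 0.23, edgeR adjusted p = 6.95e-08) and it was also called at 4 h (edgeR adjusted p = 0.0237). Every time step was lower than the last, unlike the member beside it.

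On chromosome 2, the peak at 241930437 to 241930837, 1145 bases from a member, had 85.9 and 86.3 CPM in DMSO, 69.4 and 77.8 CPM at 2 h, 66.5 and 67.0 CPM at 4 h, and 39.4 and 37.1 CPM at 24 h. Its log2 change at 24 h was -1.19 against DMSO (SE 0.10, edgeR adjusted p = 1.24e-20) and -0.81 against 4 h (edgeR adjusted p = 2.95e-08), and it was called at 4 h (edgeR adjusted p = 0.0084). On chromosome 9 at 101820547, chromosome 1 at 33386413 and chromosome 21 at 43886862 the log2 changes at 24 h were -1.38, -1.19 and -1.02 (edgeR adjusted p = 2.24e-10, 2.3e-10 and 0.00272). Over all 40 called neighbours the median log2 changes at 2 h, 4 h and 24 h were -0.24, -0.40 and -0.78. Over the other 264 they were 0.08, 0.02 and -0.12. The 24 h call made this split, so the difference at 24 h is built in, and the changes at 2 h and 4 h share its DMSO libraries. Neighbours that met the late-loss rule had also been taken out. These medians are therefore a description.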

How the data were processed

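The authors deposited raw read counts per peak window, as whole numbers, for 8 libraries. Of 42067 windows, 42065 are 400 bases wide between start and end. Per the submitters' processing notes, the tools included DESeq2, DiffBind, MACS2, Bowtie2 and Trimmomatic 0.32, with no roles given, and the builds named are dm3 and hg19. Coordinates are as deposited, taken as hg19. Reads of the fly build were not analysed here. Whether starts count from 0 or 1 is not stated. Columns were matched to groups by name, and 0 columns were left without a group.

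The members, lists and tests were chosen with earlier results of these data known. The rule used CPM by column sums and a pseudocount of 1 CPM. The test was that of edgeR 4.0.16, run in R 4.3.3 (filterByExpr with a minimum count of 10, TMM, robust quasi-likelihood fit of the 4 groups, Benjamini-Hochberg over 41791 peaks), and 276 peaks were left out. Standard errors come from the F statistic. The common dispersion was 0.00108 and the median prior degrees of freedom 182, so p-values rest mostly on a spread shared by all peaks. DESeq2 1.42.0 was an alternative. Counts of the 2 libraries of a group differed by more than sampling noise (chi-square per degree of freedom from 1.06 to 1.21). Named peaks were the 10 members with the lowest L at 24 h, the 5 highest in DMSO, the 5 with the lowest ratio of 24 h to 4 h, the members of 4 joined regions (those with most members, ties going to the lower mean L at 24 h; 7 tied at 2 members), the 5 lowest that met the rule in every library, those next to each threshold, and the 5 neighbours with the largest called fall. Comparison classes and the exchange of times are defined where they are used; the exchange, the choice of early losses in 1 set of libraries and the distance bins were added after the data were seen. Windows were joined, and neighbours taken, up to a distance that rounds to 13 kb.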

Additional observations from a re-analysis of the deposited data

How the results depend on the processing

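The rule's count of 234 depended on its thresholds. It was 120 with a pseudocount of 5 CPM, 116 and 398 with early limits of -0.1 and -0.3, 453 and 31 with 24 h limits of -0.4 and -0.75, and 363 and 84 with DMSO minimums of 5 and 20 CPM. Scaling by TMM or DESeq2 size factors gave 258 in each case and a pseudocount of 0.1 CPM 267. Leaving out a library gave 220 to 386, and similar totals hid changed membership: 123 to 206 of the 234 were taken again. Members called lower at 24 h against DMSO numbered 14 by DESeq2 and 80 to 176 with a library left out; against 4 h these were 0 and 18 to 86, and against 2 h 9 and 62 to 146. Neighbours called lower at 24 h numbered 11 by DESeq2, 21 within 5 kb, 111 within 50 kb and 26 to 41 with a library left out. The summed neighbour ratio was 0.876 with TMM scaling and 0.886 to 0.894 with a library left out. In libraries not used for choosing, peaks chosen in B averaged -0.077 at 4 h with a pseudocount of 5 CPM and -0.38 at 24 h with a DMSO minimum of 20 CPM. The causes of these differences were not tested.

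Column letters do not match the numbers in the labels, and same-letter libraries did not deviate together (correlations from -0.03 to 0.05). With the letter as a replicate block, the counts were 171 against DMSO, 83 against 4 h, 144 against 2 h, 0 at 2 h or 4 h, and 40 neighbours. For single named peaks, 23 of 270 values under settings other than leaving out a library lost the 24 h call. The 270 include peaks that edgeR had not called, which had no call to lose. Most of the 23 were under DESeq2, which did not call most of the named members that edgeR called. No value changed sign, also with a library left out. Depth limits single peaks: the median member rests on 48 to 79.5 counts per library.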
